A study of Mus musculus with 15 samples.

Results

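The leukemia labelled undifferentiated in a mouse model of Cbx7 overexpression was set against the T-cell and the erythroid leukemias of the same model. It was 1 of the 12 mice with a type label (mouse 4-3, 1 of 14 labelled arrays), and it was chosen by that label alone. For each of 10474 genes with detectable signal, the value of mouse 4-3 was placed against the range of the 7 T-cell mice and the range of the 4 erythroid mice. It lay outside both ranges for 1339 genes, 12.8% of those tested.

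RNA came from unsorted spleen cells of each mouse and was measured on Illumina bead arrays, 15 in all. The undifferentiated leukemia was that of mouse 4-3, the T-cell leukemias were those of mice 2, 5, 4-1, 2-2, 5-1, 4-2 and 5-3, and the erythroid leukemias were those of mice 2-3, 5-5, 2-3-2 and 2-3-3. Every labelled mouse carried the Cbx7 overexpression, so the model is shared by the 3 groups and no mouse without it stands beside them. Mice 5-1 (T-cell) and 5-5 (erythroid) were run on 2 arrays each, which were averaged, and 1 array with no mouse or type label entered the normalization and no comparison. The labels give neither the age of the mice nor what the numbers in their names mean. They also do not say which cells received Cbx7, how the leukemia type was assigned, or what share of a spleen was leukemic. In such bulk samples, fewer cells of a type and less RNA per cell cannot be told apart.

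Blood cells descend from stem and progenitor cells that commit to a lineage and then switch on its genes: in T lymphocytes the receptor complex and its signalling proteins, in red cell precursors the globins, the enzymes of heme synthesis and the membrane skeleton. A leukemia is called undifferentiated when its cells show little of any such programme. Cbx7 is a chromobox subunit of polycomb repressive complex 1, which keeps genes silent in stem cells by binding a histone mark laid down by polycomb repressive complex 2.

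The array of mouse 4-3 detected 11699 of 25697 probes (detection p under 0.05 against the negative controls of the array), against 11278 to 12944 on the T-cell arrays and 7382 to 12605 on the erythroid arrays. Levels below are log2 of the background-corrected and quantile-normalised signal. The lowest level at which a probe was detected was 4.98 on the array of mouse 4-3, against 4.82 to 5.06 in the T-cell mice and 4.86 to 6.09 in the erythroid mice, so levels near 5 are background, and levels near 6 in erythroid mouse 2-3-2. The number of arrays limits the precision: mouse 4-3 has no repeat. The repeat arrays of mouse 5-1 differed by at least 2-fold for 2.86% of genes, and those of mouse 5-5 for 33.8%. The probe for Cbx7 (ILMN_2947234) was at 4.78 and not detected in mouse 4-3, against 4.58 to 5.08 in T-cell mice and 4.44 to 4.72 in erythroid mice. It was detected on 2 of the 14 arrays and was not tested, so it does not check the label of the model.

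The difference between mouse 4-3 and each type was tested with limma over all 10474 genes, with the spread taken from the T-cell and erythroid mice (Benjamini-Hochberg adjusted p under 0.05). Against the T-cell mice, 2 genes were lower (0.0191% of the genes) and 0 were higher (0%). Against the erythroid mice, 1 gene was lower (0.00955%) and 0 were higher (0%). That gene, Bbx, was lower in both comparisons (0.00955%), which share the value of mouse 4-3. At an unadjusted limma p under 0.05, 296 genes were higher and 458 lower than in the T-cell mice, and 325 were higher and 164 lower than in the erythroid mice. An exact permutation test of mouse 4-3 against the 11 other mice pooled cannot give a two-sided p below 0.167. That pooled comparison was not made, and against the T-cell or the erythroid mice alone the limit is higher.

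Bbx encodes a DNA-binding protein of the HMG-box family (probe ILMN_2669461, the only probe for the gene). Its level was 5.05 in mouse 4-3. It was 7.54 to 8.49 in the T-cell mice, with a median of 8.11, and 8.15, 8.02, 8.07 and 8.40 in erythroid mice 2-3, 5-5, 2-3-2 and 2-3-3. All 11 other mice were close to each other, and mouse 4-3 lay apart from them, 5.63-fold below the lowest. The log2 difference from the mean of the T-cell mice (8.00 ± 0.36, SD, n = 7) was -2.96 ± 0.39 SE, 7.77-fold (limma adjusted p = 0.0307). From the erythroid mean (8.16 ± 0.17, SD, n = 4) it was -3.11 ± 0.41 SE, 8.66-fold (limma adjusted p = 0.0457). The probe was detected in mouse 4-3 only narrowly, as its level of 5.05 was close to the lowest detected level on that array, 4.98. Its mean intensity there was 133 with a standard error of 5.49 over 36 beads. With mouse 4-3 so near background, the size of both differences depended on the offset of the normalization. With an offset of 50 in place of 16, the log2 differences were -2.12 from the T-cell mean and -2.26 from the erythroid mean. The call of Bbx against the T-cell mice was lost without T-cell mouse 2, 5, 4-2 or 5-3, at log2 differences of -2.93 to -3.03. Against the erythroid mice it was lost without T-cell mouse 2, 5, 5-1, 4-2 or 5-3 and without erythroid mouse 2-3, 5-5 or 2-3-3 (adjusted p between 0.0545 and 0.172). Both calls also ended with median scaling (adjusted p = 0.273 against T-cell and 0.817 against erythroid mice), with arrays 1 to 8 alone (0.101 and 0.647) and with the title number as a replicate block (0.252 and 0.995).

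Lbh encodes a transcription cofactor first described in limb bud and heart (probe ILMN_2816180). Its level was 6.64 in mouse 4-3, against 9.86 to 11.18 in the T-cell mice (median 10.84) and 8.60, 8.33, 7.70 and 7.38 in erythroid mice 2-3, 5-5, 2-3-2 and 2-3-3. The T-cell mice were highest, the erythroid mice lay below all of them, and mouse 4-3 lay 1.67-fold below the lowest erythroid mouse. Lbh was 16.0-fold lower than the T-cell mean (10.63 ± 0.50, SD, n = 7), with a log2 difference of -4.0 ± 0.55 SE (limma adjusted p = 0.0307), a call that leaving out T-cell mouse 2, 5, 4-2 or 5-3 also ended. It ended too with median scaling (adjusted p = 0.23), with arrays 1 to 8 alone (0.0764) and with the title number as a block (0.252). Against the erythroid mean (8.00 ± 0.56, SD, n = 4) the difference was -1.37 ± 0.57 SE and did not pass (limma adjusted p = 0.938). The second Lbh probe past the detection filter (ILMN_1233545) gave 5.70 in mouse 4-3, below the T-cell range of 7.88 to 10.06 and inside the erythroid range of 5.42 to 6.04. Lbh thus set mouse 4-3 apart from the T-cell mice on both probes and from the erythroid mice on only 1.

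**Figure D1:**
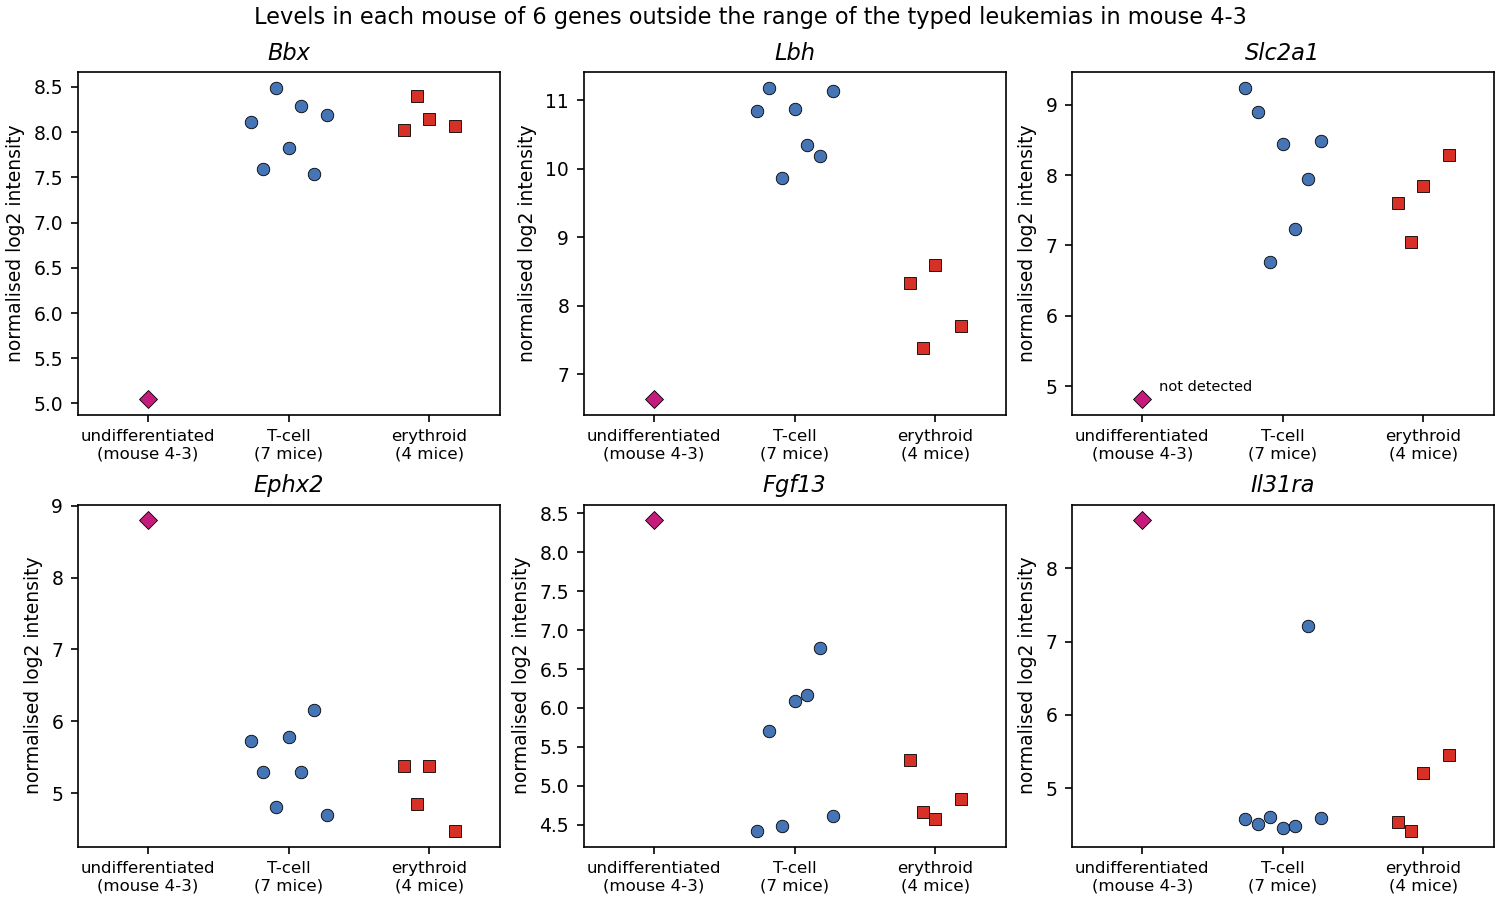
Normalised log2 level of Bbx, Lbh, Slc2a1, Ephx2, Fgf13 and Il31ra in each of the 12 mice, with mouse 4-3 first and the T-cell and erythroid mice after it. Each point is a mouse, with repeat arrays averaged. For Bbx, mouse 4-3 sits at 5.05 and every other mouse at 7.54 or above.

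Beyond these tests, mouse 4-3 lay above both ranges for 737 genes (7.04%) and below both for 602 (5.75%). For 135 genes (1.29%) the 2 ranges were apart and mouse 4-3 lay between them. It lay inside the T-cell range only for 2214 genes, inside the erythroid range only for 1748 and inside both for 5038. Of the 602 genes below both ranges, 415 were not detected in mouse 4-3. The split between above and below depends on the scaling: it was 1234 above and 420 below when arrays were scaled to a common median, and 773 above and 969 below with cyclic loess. Median scaling moved the median difference of all genes to 0.225 against the T-cell mice and 0.435 against the erythroid mice, where it was 0.02 in both comparisons with quantile normalization.

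At a distance of at least 2-fold from every other mouse, mouse 4-3 was above for 25 genes detected on its array (0.239%) and below for 29 genes detected in all 11 other mice (0.277%). With median scaling these numbers were 41 and 13. The limit cut a continuous series of distances. The closest genes past it were St3gal3 at 1.004 and Hpn at 1.008 above, and Slc15a2 at 1.092 below. The closest short of it were Pank1 at 0.986 and Tbc1d8 at 0.979 above, and Pfkp at 0.965 below (log2 distance to the nearest mouse).

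For the genes at least 2-fold outside, T-cell mouse 4-1 was most often the mouse next to 4-3. Among the 25 genes above, T-cell mouse 4-1 was the next highest for 15 (60%) and T-cell mouse 2-2 for 5. Among the 29 genes below, mouse 4-1 was the next lowest for 9 (31%) and erythroid mouse 5-5 for 5. Over all 737 genes above both ranges, mouse 4-1 was next for 177 (24%) and erythroid mouse 2-3 for 109 (14.8%). Over all 602 genes below, erythroid mice 2-3-3, 2-3-2 and 2-3 were next for 92 (15.3%), 87 (14.5%) and 76 (12.6%), ahead of mouse 4-1 with 71 (11.8%). Mouse 4-1 shares its first title number with mice 4-3 and 4-2, and without it the number of genes at least 2-fold above was 61. The T-cell mice also spread more in these genes: the median T-cell range was 2.26 for the 25 genes above and 2.1 for the 29 below, against 1.15 over all genes.

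**Figure D2:**
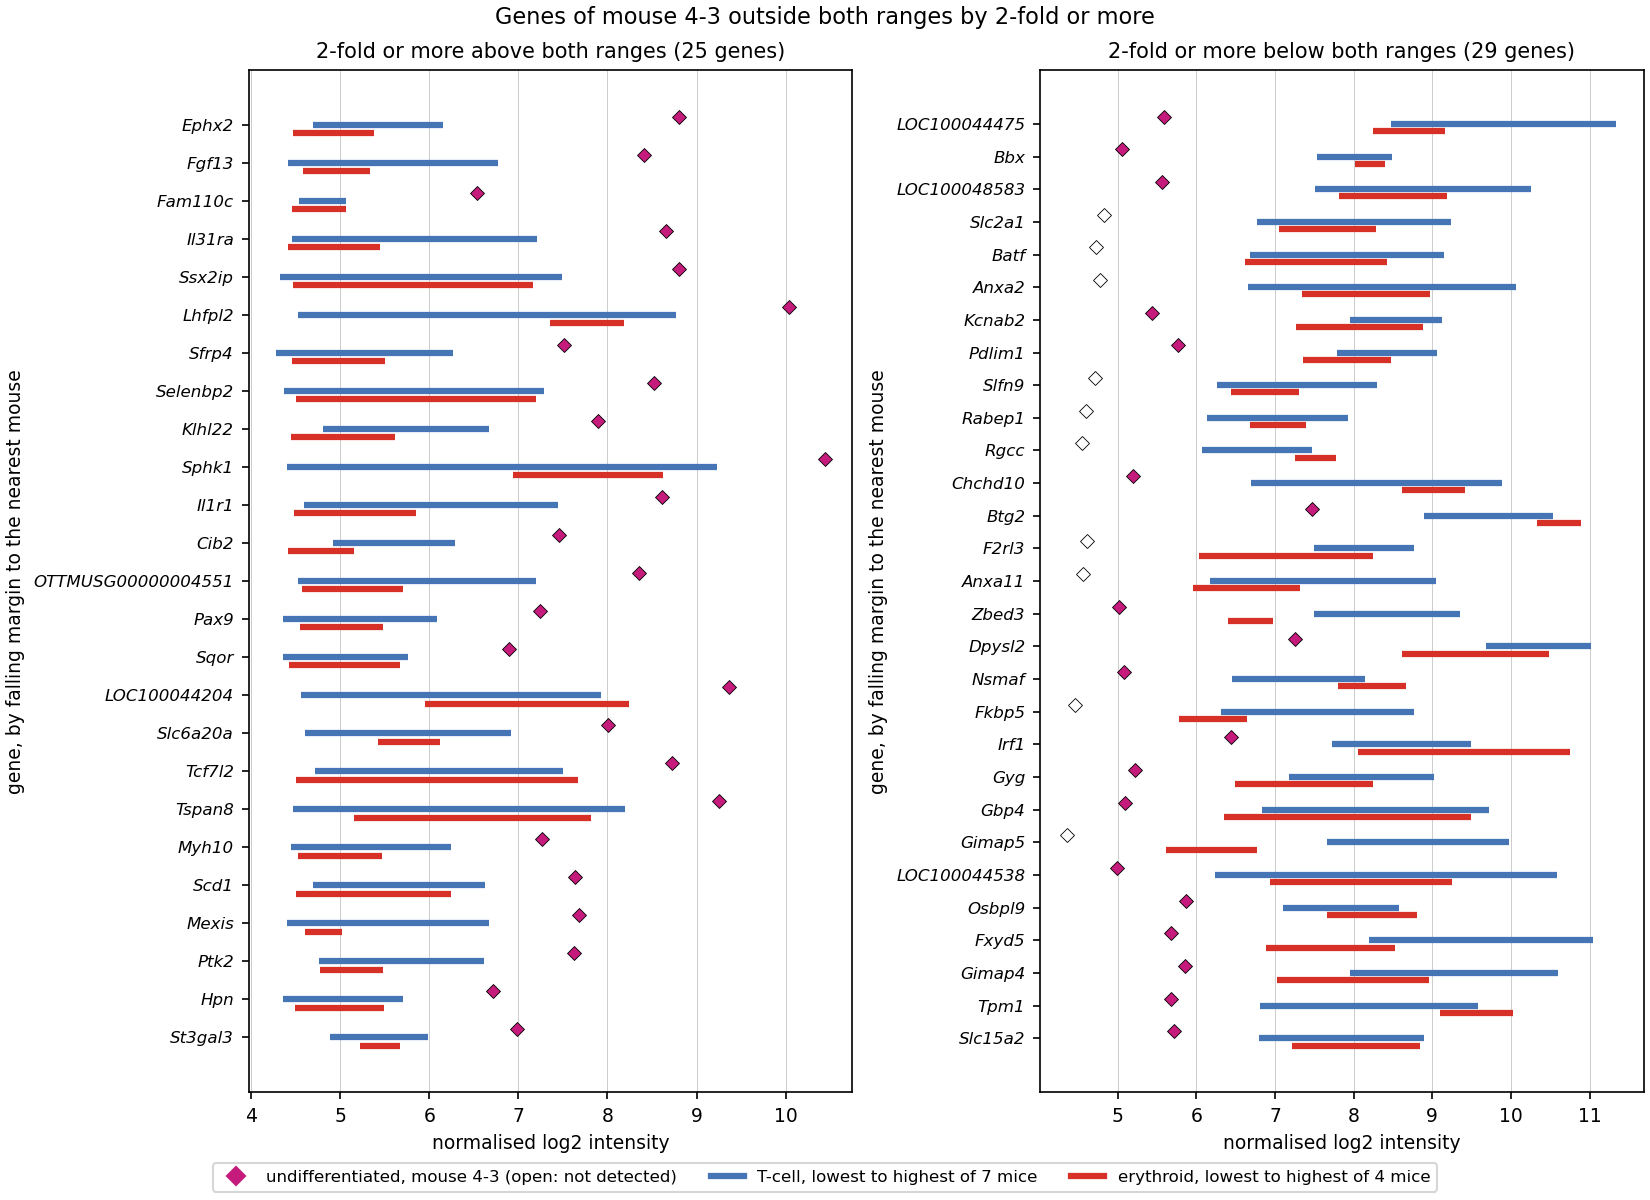
Log2 level of the 25 genes at least 2-fold above and the 29 genes at least 2-fold below every other mouse, 1 row per gene. Diamonds mark mouse 4-3, open where the gene was not detected. Bars run from the lowest to the highest T-cell mouse and from the lowest to the highest erythroid mouse. By the choice of genes, the gap between mouse 4-3 and the nearest other mouse is at least 1 in every row.

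Ephx2 lay furthest above. It encodes soluble epoxide hydrolase, an enzyme that turns fatty acid epoxides into diols. Its level was 8.80 in mouse 4-3, against 4.70 to 6.15 in the T-cell mice (median 5.30) and 5.38, 5.38, 4.47 and 4.85 in erythroid mice 2-3, 5-5, 2-3-2 and 2-3-3. The T-cell and erythroid mice overlapped, and mouse 4-3 lay apart from both, 6.27-fold above the next mouse. The log2 difference was 3.41 ± 0.53 SE against the T-cell mice and 3.78 ± 0.55 SE against the erythroid mice. Neither passed the threshold (limma adjusted p = 0.0548 and 0.063), and both passed when T-cell mouse 4-1 was left out (0.0272 and 0.0195).

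Several genes of signalling were among the highest above. Fgf13, an intracellular member of the fibroblast growth factor family, was at 8.41 in mouse 4-3, against 4.42 to 6.77 in the T-cell mice (median 5.71). It was detected in no erythroid mouse (4.58, 5.33, 4.83 and 4.66), so that mouse 4-3 was at least 8.13-fold higher. Its second probe also lay above both ranges, at 7.77. Il31ra, a subunit of the interleukin-31 receptor, was at 8.66 in mouse 4-3, against 4.46 to 7.21 in the T-cell mice (median 4.57) and 5.21, 4.54, 5.45 and 4.41 in the erythroid mice. The 7.21 came from mouse 4-1, and the next T-cell mouse was at 4.60. Il1r1, the receptor of interleukin-1, was at 8.61, against at most 7.44 in T-cell and 5.85 in erythroid mice, and its second probe also lay above both ranges, at 7.12. Sfrp4, a secreted modulator of Wnt signalling, was at 7.51, against at most 6.27 in T-cell mice, again in mouse 4-1, and 5.50 in erythroid mice. Sphk1, the kinase that makes sphingosine 1-phosphate, was at 10.44, against at most 9.23 in T-cell and 8.62 in erythroid mice. Its second probe, at 6.48, lay inside the T-cell range of 6.08 to 6.87. None of these 5 genes passed either limma test (adjusted p of 0.127 to 0.938).

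The other genes of the 15 furthest above had varied roles. Fam110c was at 6.54 in mouse 4-3, against at most 5.07 in each type, a narrow background-level range in the others. Ssx2ip, a protein of centriolar satellites and cell adhesion, was at 8.80, against at most 7.49 in T-cell and 7.16 in erythroid mice. Lhfpl2, a membrane protein, was at 10.04, against at most 8.77 in T-cell and 8.19 in erythroid mice. These distances were 2.77-fold, 2.48-fold and 2.4-fold to the nearest mouse. Pax9, a paired-box transcription factor, was at 7.24, against at most 6.09 in T-cell mice, in mouse 4-1, and 5.48 in erythroid mice. Selenbp2 (8.52), Cib2, a calcium- and integrin-binding protein (7.46), and Sqor, a mitochondrial enzyme that oxidises sulfide (6.89), lay 2.33-fold, 2.24-fold and 2.17-fold above the next mouse. Klhl22, an adaptor of a ubiquitin ligase, was at 7.89 on 1 probe (2.33-fold above), while its second probe, at 5.29, lay inside the erythroid range of 4.69 to 5.67. OTTMUSG00000004551, for which no name is given here, was at 8.35 (2.21-fold above). The 10 remaining genes at least 2-fold above were LOC100044204, Slc6a20a, Tcf7l2, Tspan8, Myh10, Scd1, Mexis, Ptk2, Hpn and St3gal3. For 23 of the 25 the nearest other mouse was a T-cell mouse, and for 15 it was mouse 4-1. With 7 T-cell and 4 erythroid mice, a T-cell mouse is nearest more often by number alone.

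Below both ranges, LOC100044475, an identifier with no gene name here, lay furthest from the other mice, ahead of Bbx. It was at 5.59 in mouse 4-3, against 8.48 to 11.34 in the T-cell mice (median 9.45) and 8.24, 8.43, 9.16 and 8.85 in erythroid mice 2-3, 5-5, 2-3-2 and 2-3-3. All other mice were at least 6.26-fold higher. The log2 difference was -3.91 ± 0.77 SE against T-cell and -3.08 ± 0.81 SE against erythroid mice, and neither passed (limma adjusted p = 0.0841 and 0.647). LOC100048583, also unnamed here, was at 5.56, 3.86-fold below the next mouse.

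Of the 29 genes at least 2-fold below every other mouse, 10 were not detected in mouse 4-3. For those the difference is given as a bound, from the mean of the type down to the higher of the probe's own level and the lowest detected level on the array of mouse 4-3. Slc2a1, a glucose transporter of many dividing cells, was at 4.82 and not detected in mouse 4-3. It was at 6.77 to 9.24 in the T-cell mice (median 8.44) and at 7.85, 7.61, 8.29 and 7.05 in the erythroid mice. Detection in every other mouse was a condition for this set of genes. Mouse 4-3 was at least 8.94-fold lower than the T-cell mean and at least 6.57-fold lower than the erythroid mean. Neither limma test passed. Anxa2, a calcium-dependent membrane-binding annexin, was at 4.78 and not detected, against 6.66 to 10.07 in the T-cell mice (median 8.86) and 7.95, 8.29, 8.97 and 7.34 in the erythroid mice. It was at least 12.4-fold lower than in T-cell and at least 8.9-fold lower than in erythroid mice (limma adjusted p = 0.245 and 0.938). A second annexin, Anxa11, was not detected either (4.56), at least 7.4-fold and at least 3.02-fold lower, and both of its probes lay below both ranges.

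Regulators of transcription and of the cell cycle were also among the lowest. Batf, a transcription factor of the AP-1 family that acts in lymphocytes, was at 4.73 and not detected in mouse 4-3, against 6.68 to 9.15 in T-cell mice and 7.29, 8.12, 8.43 and 6.62 in erythroid mice. Btg2, an antiproliferative protein, was at 7.47, against 8.90 to 10.53 in the T-cell mice (median 10.01) and 10.33, 10.89, 10.68 and 10.33 in the erythroid mice. Rgcc, a regulator of the cell cycle, was at 4.55 and not detected, against 6.07 to 7.47 in the T-cell mice (median 7.06) and 7.46, 7.77, 7.26 and 7.70 in the erythroid mice. These 3 genes were taken from those below every other mouse, so the lack of overlap follows from that choice. The log2 difference of Btg2 was -2.46 ± 0.49 SE against T-cell and -3.09 ± 0.51 SE against erythroid mice (limma adjusted p = 0.0841 and 0.117). Rgcc was at least 4.16-fold lower than in T-cell and at least 5.9-fold lower than in erythroid mice, with the same adjusted p-values. Batf was at least 6.88-fold and at least 6.2-fold lower (limma adjusted p = 0.181 and 0.688).

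The others of the 15 lowest had varied roles. F2rl3, the thrombin receptor PAR4, was not detected in mouse 4-3 (4.61), against 7.50 to 8.77 in T-cell mice and 8.06, 6.04, 6.98 and 8.25 in erythroid mice. Mouse 4-3 was at least 9.41-fold lower than T-cell and at least 5.1-fold lower than erythroid mice. Kcnab2, a beta subunit of potassium channels, was at 5.44, against 7.95 to 9.13 in T-cell mice and 7.53, 7.27, 8.88 and 8.45 in erythroid mice. Chchd10, a mitochondrial protein, was at 5.19, against 6.69 to 9.89 in T-cell mice and 9.42, 8.92, 8.62 and 9.14 in erythroid mice. That all 11 other mice were higher in each of these 3 genes follows from the choice of genes, and no limma test passed. Pdlim1, a PDZ and LIM domain protein, was at 5.77, 2.99-fold below the next mouse. Slfn9, a Schlafen family member (4.71), and Rabep1, an effector of Rab5 on endosomes (4.60), were not detected, though a further Rabep1 probe, at 5.03, lay inside the erythroid range of 4.61 to 6.02. The 14 remaining genes were Zbed3, Dpysl2, Nsmaf, Fkbp5, Irf1, Gyg, Gbp4, Gimap5, LOC100044538, Osbpl9, Fxyd5, Gimap4, Tpm1 and Slc15a2. For 15 of the 29 the nearest other mouse was among the 7 T-cell mice and for 14 among the 4 erythroid mice.

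The label was next read against genes of the lineages, in lists chosen with earlier results of these data known. Of 32 tested genes of the T-cell receptor and its signalling, 22 were detected in mouse 4-3. Their mean level was 5.65 in mouse 4-3, against 6.7 to 8.35 in the T-cell mice (median 8.15) and 5.51 to 5.96 in the erythroid mice (median 5.91). Mouse 4-3 lay below every T-cell mouse and among the erythroid mice. It lay in the erythroid range only for 15 of the 32 genes (16.7% of all genes) and in the T-cell range only for 6 (21.1%). It lay in both for 5 (48.1%), between them for 3 (1.29%) and below both for 3 (5.75%). The median log2 difference was -1.93 against the T-cell mice and -0.17 against the erythroid mice (0.03 with median scaling, -0.65 with cyclic loess), where the median of all genes was 0.02 in each. Of the 32 genes, 0 passed either limma test.

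Cd3d, Cd3e and Cd3g encode chains of the CD3 complex, which carries the T-cell receptor signal. Cd3d was at 5.39 in mouse 4-3, against 8.48 to 10.93 in the T-cell mice (median 10.74) and 6.35, 7.27, 4.37 and 5.03 in erythroid mice 2-3, 5-5, 2-3-2 and 2-3-3. Cd3e was at 5.48, against 8.04 to 10.64 in T-cell mice (median 10.06) and 6.30, 6.84, 6.72 and 4.85 in erythroid mice. Cd3g was at 5.40, against 7.67 to 10.13 in T-cell mice (median 9.86) and 5.77, 5.42, 4.45 and 4.70 in erythroid mice. All 3 lay below every T-cell mouse and inside the erythroid range. The log2 differences from the T-cell mean were -4.88 ± 0.97, -4.29 ± 0.83 and -4.07 ± 0.78 (SE), 29.4-fold, 19.6-fold and 16.8-fold, with limma adjusted p = 0.0841 for each. The fourth chain, Cd247, was at 5.78, inside both ranges, on its brightest probe. Its second probe was at 4.89 and not detected, below the T-cell range (5.19 to 7.66) and inside the erythroid range (4.47 to 5.09). Grap2, an adaptor of receptor signalling, was at 5.11, below both ranges (5.28 to 8.21 in T-cell mice and 6.20 to 8.97 in erythroid mice).

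Among 15 tested genes of early T-cell development, 8 were detected in mouse 4-3, and 7 lay in the erythroid range only (16.7% of all genes). A further 2 lay below both (5.75%) and 1, Myb, above both (7.04%). The mean level of the list was 6.05 in mouse 4-3, against 6.63 to 8.52 in T-cell mice and 5.74 to 6.12 in erythroid mice. Over the list, the median log2 difference was -1.22 against the T-cell mice and -0.06 against the erythroid mice (0.02 with median scaling, -0.42 with cyclic loess). Tcf7, a transcription factor of T-cell commitment, was at 4.80 and not detected in mouse 4-3. It was at 7.11 to 9.59 in the T-cell mice (median 9.10) and at 4.77, 4.89, 4.58 and 4.81 in the erythroid mice. Tcf7 was thus at background in mouse 4-3 as in the erythroid mice, at least 14.0-fold lower than in the T-cell mice (limma adjusted p = 0.0694). Bcl11b, which fixes T-cell identity, was not detected either (4.61), against 5.82 to 9.09 in T-cell mice and 5.03, 5.31, 4.69 and 4.54 in erythroid mice, at least 7.64-fold lower than in T-cell mice (limma adjusted p = 0.195). Gata3 (4.42) was not detected, and Lef1, at 5.36, was next to the lowest T-cell mouse, 2-2, at 5.37. Myb, a transcription factor of progenitors of several lineages, was at 11.07 in mouse 4-3, against 9.48 to 10.86 in the T-cell mice (median 9.92) and 9.93, 8.76, 8.58 and 10.09 in the erythroid mice. Both Myb probes lay above both ranges.

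Of 11 genes of the Notch pathway, which drives T-cell commitment, 2 lay in the erythroid range only (16.7% of all genes). In the T-cell range only lay 4 (21.1%), in both 4 (48.1%) and below both 1 (5.75%). The receptor Notch1 was not detected in mouse 4-3 (4.47), against 5.13 to 8.83 in T-cell mice and 4.46 to 4.85 in erythroid mice. Its target Dtx1 was not detected either (4.76). The median log2 difference of the list was -0.02 against T-cell mice (0.10 with median scaling) and 0.11 against erythroid mice (below 0 with cyclic loess).

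Of 34 tested genes of the red cell membrane and terminal erythroid maturation, 33 were detected in mouse 4-3. Their mean level was 8.39 in mouse 4-3, against 5.21 to 8.48 in the T-cell mice (median 7.2) and 8.79 to 9.39 in the erythroid mice (median 8.86). Mouse 4-3 thus lay below every erythroid mouse and near the highest T-cell mouse. Of the 34 genes, 32 were above the T-cell mean and 9 above the erythroid mean. As a median over the list, the log2 difference was 1.48 against the T-cell mice and -0.58 against the erythroid mice, where median scaling gave 0.01 against a median of 0.435 over all genes and cyclic loess gave -0.69. By gene, 12 lay in the erythroid range only, 11 in the T-cell range only, 6 in both, 4 between and 1 above both. Over all genes tested, the shares in these places were 16.7%, 21.1%, 48.1%, 1.29% and 7.04%.

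Kel, the Kell blood group protein, was at 8.60 in mouse 4-3, against 4.54 to 8.58 in the T-cell mice (median 6.94) and 9.30, 10.09, 9.88 and 9.81 in erythroid mice 2-3, 5-5, 2-3-2 and 2-3-3. Dmtn, an actin-bundling protein of the membrane skeleton, was at 6.44, against 4.54 to 6.15 in T-cell mice (median 4.79) and 7.09, 8.22, 7.09 and 7.14 in erythroid mice. Add2, which joins actin to spectrin, was at 5.83, against 4.71 to 5.51 in T-cell mice and 5.96, 7.23, 7.07 and 6.52 in erythroid mice. In each of the 3 genes mouse 4-3 lay between groups that did not overlap. Other probes placed it differently: the second Add2 probe, at 5.47, lay in the erythroid range only, and the further Dmtn probes, at 5.77 and 4.83, lay inside both ranges. Ermap, a red cell membrane protein, was at 10.06, above the T-cell range (5.11 to 9.42) and inside the erythroid one (9.59 to 10.63). Aqp1, the water channel of the red cell, was at 12.48, above both ranges (6.33 to 12.32 in T-cell and 11.80 to 12.39 in erythroid mice), and all 3 of its probes lay above both.

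Of 19 genes of heme synthesis and iron, 18 were detected in mouse 4-3, and their mean level was 8.63, against 6.7 to 8.74 in the T-cell mice (median 7.7) and 9 to 9.7 in the erythroid mice (median 9.18). Its genes differed by a median of 1.09 on the log2 scale against the T-cell mice and of -0.51 against the erythroid mice (-0.09 with median scaling, -0.89 with cyclic loess). Uros, the fourth enzyme of the pathway, lay between the groups at 6.63 (4.86 to 6.60 in T-cell and 7.28 to 8.32 in erythroid mice), while its second probe, at 5.75, lay in the erythroid range only. Alas2, which starts heme synthesis in red cell precursors, was at 10.42 and inside both ranges, while Alad, the next enzyme, lay in the erythroid range only at 10.55. Tfr2, a transferrin receptor, lay above both ranges at 5.92 on 1 probe, while the other, at 5.70, lay inside the erythroid range of 4.99 to 5.78. Cpox lay below both at 9.89, while its other 2 probes lay inside a range. The globins could not place mouse 4-3: Hba-a1 (12.38), Hbb-b1 (13.38) and Hbb-b2 (11.55) lay inside both ranges, since the T-cell mice spanned 6.62 to 12.42, 7.87 to 13.74 and 6.65 to 12.12. Probes of Hbb-b1 and Hbb-b2 may share signal, as the genes are near-identical copies.

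Of 18 genes for erythroid transcription factors or for the erythropoietin response, 8 lay in the erythroid range only (16.7% of all genes). In the T-cell range only lay 4 (21.1%), in both 4 (48.1%), between them 1 (1.29%) and above both 1, Ldb1 (7.04%). The mean level of the 18 genes was 8.29 in mouse 4-3. It was 6.12 to 8.11 in the T-cell mice (median 6.98) and 8.2 to 8.44 in the erythroid mice (median 8.35). Mouse 4-3 lay above every T-cell mouse and inside the erythroid range. Over these genes the median log2 difference was 1.61 against the T-cell mice and -0.31 against the erythroid mice (0.43 with median scaling, against 0.435 over all genes, and -0.25 with cyclic loess). Gata1, the factor that directs erythroid and megakaryocyte development, was at 7.61 in mouse 4-3, against 4.78 to 6.26 in the T-cell mice (median 5.36) and 6.84, 7.65, 5.22 and 6.70 in the erythroid mice. Klf1, which switches on adult globin and membrane genes, was at 9.81, against 4.66 to 9.39 in T-cell mice (median 7.66) and 9.63, 9.62, 9.34 and 9.89 in erythroid mice. Both lay above every T-cell mouse and within the erythroid range. The second Gata1 probe, at 5.64, lay above both ranges. Nfe2, at 9.03, lay in the T-cell range (4.33 to 9.62) and below the erythroid mice (9.45 to 9.54), and Tal1, at 7.78, lay in both. Ldb1, a partner of these factors, was at 10.04, against at most 9.82 in T-cell and 9.78 in erythroid mice. No difference of an erythroid list member between mouse 4-3 and either type passed the limma test. Mouse 4-3 thus had detectable levels of nearly all red cell genes tested, which goes beyond its label, although T-cell spleens reached similar means for membrane and heme genes. Whether this RNA came from leukemic or from other spleen cells was not tested.

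**Figure D3:**
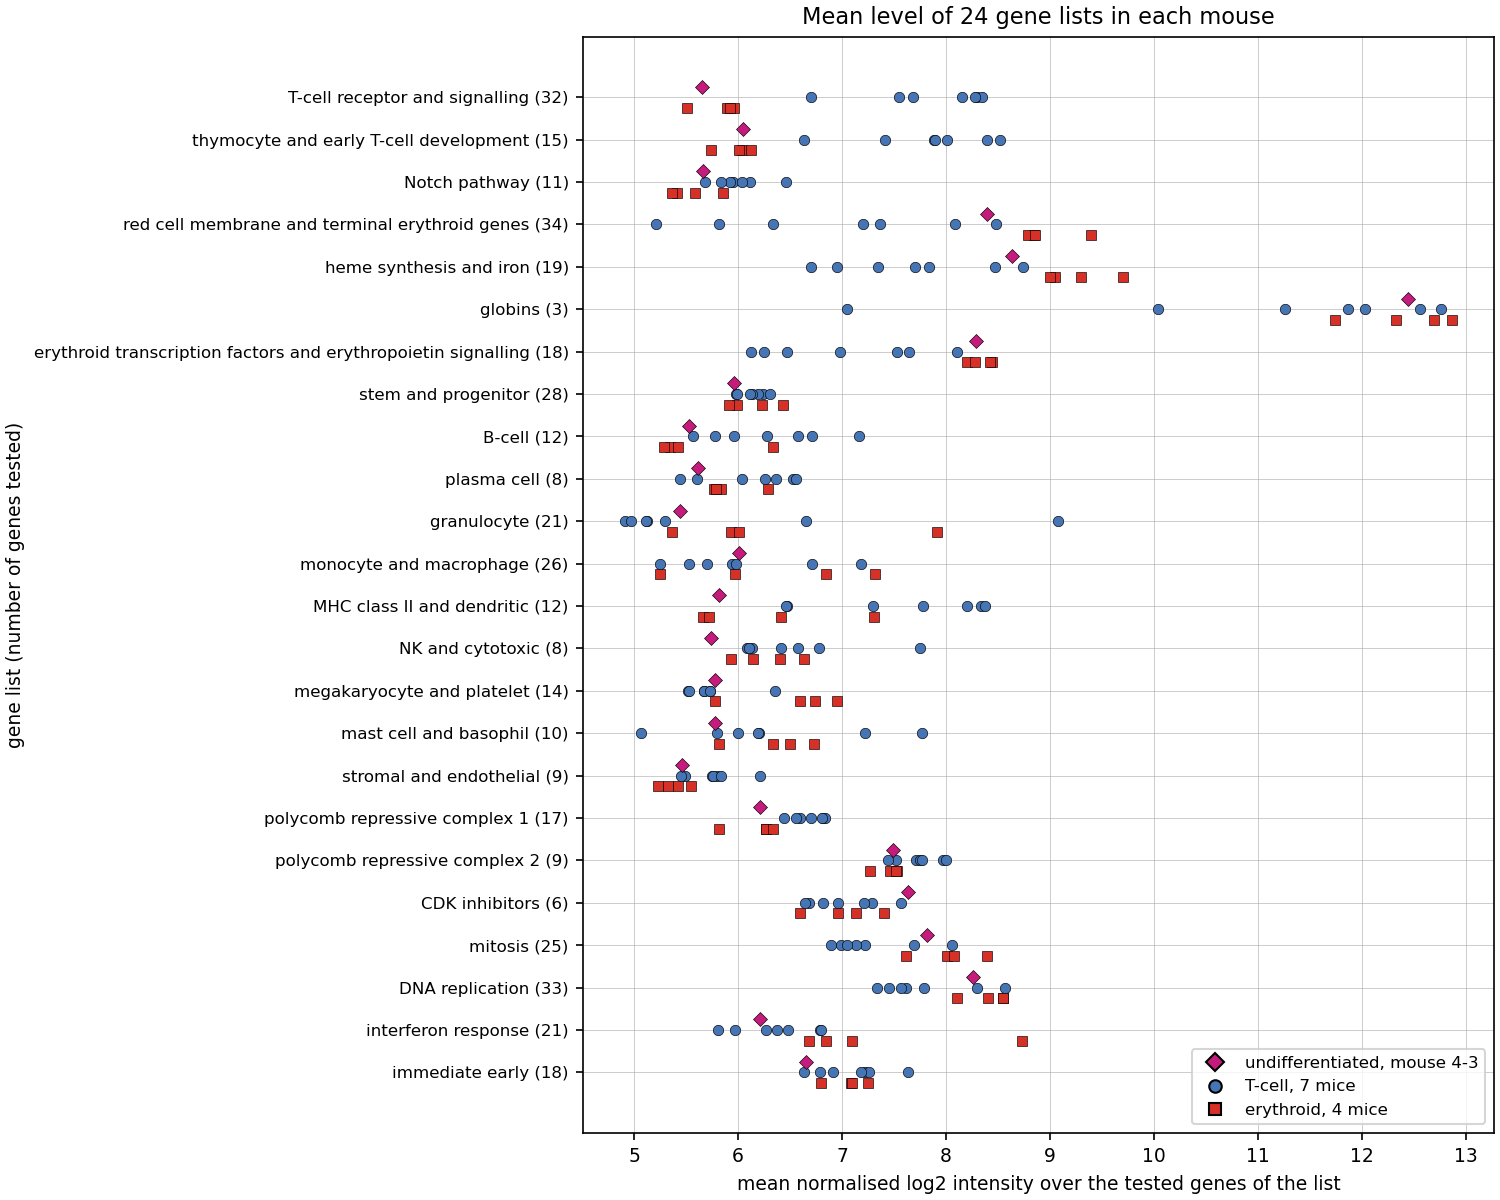
Mean log2 level of gene lists in each mouse, with mouse 4-3 first and the T-cell and erythroid mice after it. Each point is the mean over the tested genes of the list in 1 mouse. For the T-cell receptor list mouse 4-3 is at 5.65, beside the erythroid mice, and for the red cell membrane list at 8.39, between the median of the T-cell mice and the erythroid mice.

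The same question was asked over the 1075 genes (10.3% of those tested) that separated the erythroid from the T-cell mice in the same limma fit, a choice that did not use the level of mouse 4-3. For the 404 genes higher in erythroid than in T-cell mice, the median position of mouse 4-3 on the way from the T-cell mean (0) to the erythroid mean (1) was 0.49. The T-cell mice reached at most 0.48, in mouse 2-2, and the erythroid mice were at 0.71 or above, the lowest being mouse 2-3. For the 671 genes lower in erythroid mice, mouse 4-3 was at 0.71, against at most 0.34 in a T-cell mouse and at least 0.75 in an erythroid mouse. Mouse 4-3 thus lay just past the T-cell mice on the first set and just short of the erythroid mice on the second. By gene, it was inside the T-cell range only for 48.3% and inside the erythroid range only for 30% of the first set, and for 33.7% and 39% of the second. It lay between the ranges for 10.6% and 11.9%. Of the first set 198 genes (49%) were nearer to the erythroid mean, and of the second set 404 (60.2%). These sets were chosen for the separation of the T-cell and erythroid mice, so the places of those mice are a description, and 7.6% of the second set lay below both ranges.

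**Figure D4:**
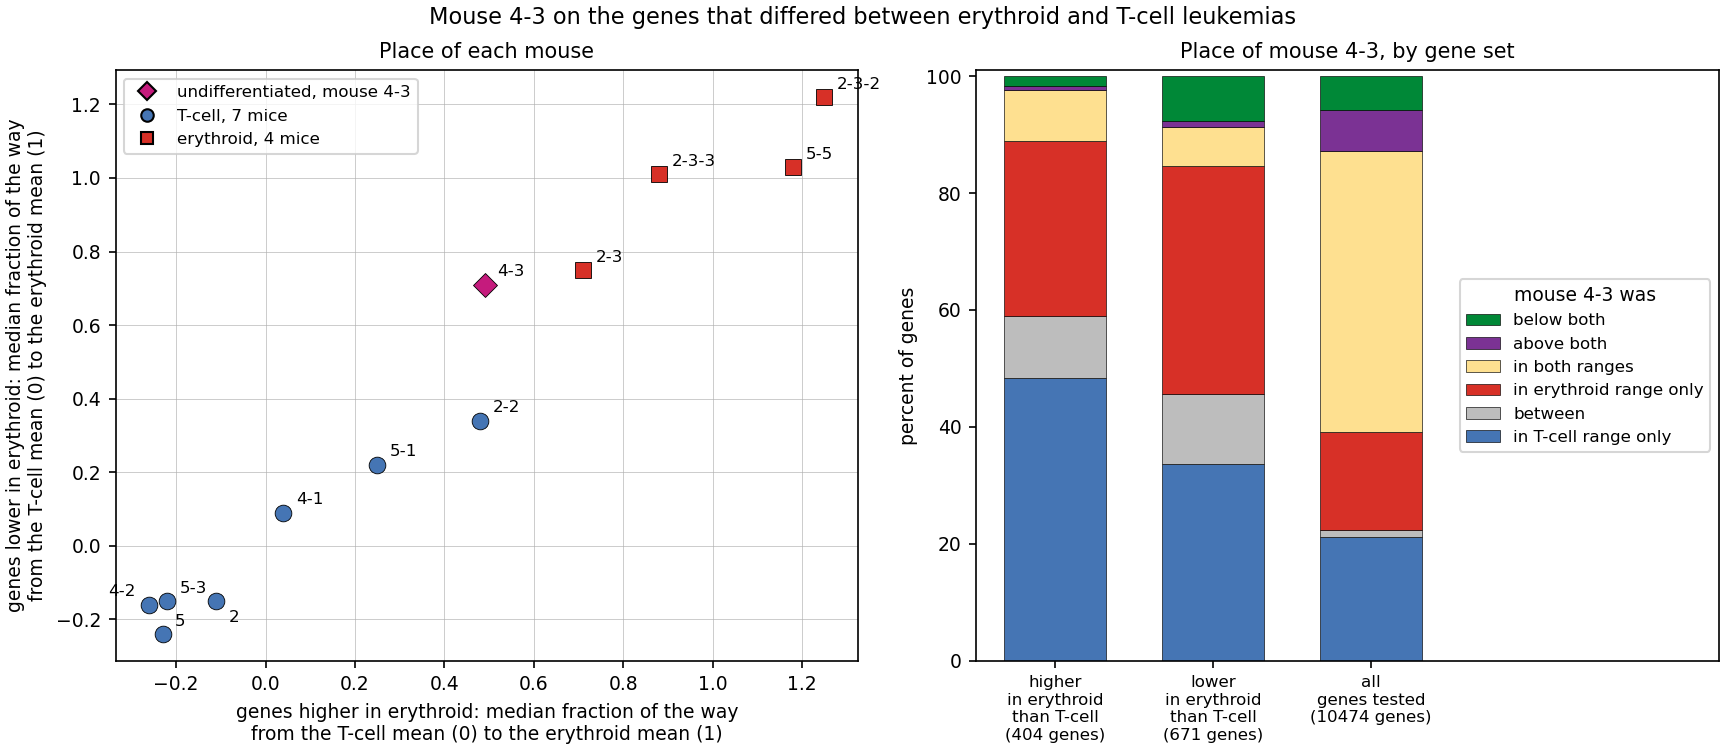
Median position of each mouse between the T-cell mean (0) and the erythroid mean (1) over the genes higher in erythroid mice (horizontal axis) and the genes lower in erythroid mice (vertical axis). Each point is a mouse. Mouse 4-3 is at 0.49 and 0.71, between the T-cell mice, up to 0.48 and 0.34, and the erythroid mice, from 0.71 and 0.75.

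Genes of stem and progenitor cells were, on average, close to their level in the other mice. Of 28 tested genes, 17 were detected, 2 lay above both ranges (7.04% of all genes), 5 below both (5.75%) and 10 inside both (48.1%). Their mean level was 5.96 in mouse 4-3, against 5.98 to 6.31 in T-cell mice and 5.91 to 6.43 in erythroid mice. Their median log2 difference was -0.20 against T-cell mice and -0.24 against erythroid mice (0.10 with median scaling, -0.14 with cyclic loess). Tek, the receptor of angiopoietins on stem and endothelial cells, was at 6.13 in mouse 4-3, against 4.42 to 5.21 in the T-cell mice (median 4.47) and 5.14, 4.42, 4.39 and 4.64 in the erythroid mice. It was detected in 1 T-cell and 1 erythroid mouse besides mouse 4-3, which lay 1.89-fold above the next mouse. The log2 difference was 1.55 ± 0.39 SE against T-cell and 1.48 ± 0.41 SE against erythroid mice (limma adjusted p = 0.17 and 0.688). Myb, given above, was the other stem and progenitor gene above both ranges. Gata2 (7.85) and the homeobox genes Hoxa9 (5.41) and Hoxa7 (6.41) lay inside both ranges. The receptor Flt3 (4.55) and Ikzf2 (4.38), a lymphoid zinc finger factor, were not detected.

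Markers of other cells that a spleen can hold were, in most lists, at or below their level in the other mice. The mean level of 12 B-cell genes was 5.53 in mouse 4-3, against 5.57 to 7.16 in T-cell mice and 5.29 to 6.34 in erythroid mice, and the receptor chain Cd79b was not detected (4.38). Btk, a kinase of B cells and myeloid cells, lay above both ranges at 7.49 (4.58 to 6.70 in T-cell and 6.05 to 7.23 in erythroid mice). Of 12 genes of antigen presentation by MHC class II and of dendritic cells, 6 were detected, with a mean of 5.82, against 6.46 to 8.37 in T-cell mice and 5.66 to 7.31 in erythroid mice. H2-Ab1, a class II chain, was at 6.20, against 6.47 to 10.43 in T-cell mice and 9.63, 8.49, 7.00 and 6.43 in erythroid mice. H2-Aa, the partner chain, was at 6.45, below the T-cell range of 7.21 to 10.35. A second H2-Ab1 probe also lay below both ranges, at 5.05, while the third, at 5.91, lay inside both (5.65 to 9.55 in T-cell and 4.81 to 8.71 in erythroid mice).

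Among granulocyte genes, 10 of 21 were detected and 13 lay inside both ranges (48.1% of all genes). The mean was 5.44, against 4.91 to 9.08 in T-cell mice and 5.36 to 7.91 in erythroid mice, and the granule enzyme Mpo was at 5.86. Among monocyte and macrophage genes, 18 of 26 were detected and 20 lay inside both ranges (48.1% of all genes). Csf1r, the receptor of their growth factor, was at 5.23. The mean of 8 natural killer and cytotoxic genes (5.74, with 2 detected) lay below both ranges, and that of 10 mast cell genes (5.78, with 4 detected) in the T-cell range only. Of 8 plasma cell genes 3 were detected. The mean of 9 stromal and endothelial genes was 5.46, against 5.45 to 6.21 in T-cell mice and 5.23 to 5.55 in erythroid mice. Of 14 megakaryocyte and platelet genes 6 were detected. Gp5, a platelet glycoprotein, lay above both ranges at 9.61 (4.43 to 9.31 in T-cell and 6.36 to 9.37 in erythroid mice). Pf4 was detected at 6.66, inside both ranges (4.40 to 7.85 in T-cell and 5.02 to 9.31 in erythroid mice). Gp1bb (4.91), Itga2b (4.97), Ppbp (4.95) and Itgb3 (4.51), of the same list, were not detected. The part of such cells in the differences of mouse 4-3 was not tested.

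Of 17 tested genes of polycomb repressive complex 1, to which Cbx7 belongs, 10 lay inside both ranges and 2 below both, where 48.1% and 5.75% of all genes did so. The median log2 difference was -0.03 against T-cell mice (0.07 with median scaling) and 0.01 against erythroid mice (below 0 with cyclic loess). Rnf2, a catalytic ubiquitin ligase subunit of the complex, was at 6.53 in mouse 4-3, against 7.89 to 8.81 in the T-cell mice (median 8.50) and 6.96, 7.62, 8.29 and 7.55 in the erythroid mice. Cbx6, a chromobox relative of Cbx7, was at 7.59, against 9.87 to 11.40 in T-cell mice (median 10.74) and 7.90, 9.89, 8.19 and 7.85 in erythroid mice. Both were lowest in mouse 4-3, by 1.34-fold and 1.19-fold to the next mouse, which was erythroid. The log2 differences were -1.86 ± 0.46 and -3.11 ± 0.67 (SE) against T-cell mice (limma adjusted p = 0.156 and 0.12). Against erythroid mice they were -1.08 ± 0.48 and -0.86 ± 0.70 (limma adjusted p = 0.938 for both). Of 9 genes of polycomb repressive complex 2, 8 were detected, with Ezh2, the methyltransferase, at 9.20 and in the erythroid range only on its brightest probe. Its other probes lay inside both ranges (8.91) and in the T-cell range only (8.34).

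Genes of proliferation were detected throughout. Of 25 mitosis genes all were detected in mouse 4-3 and 15 lay inside both ranges, as 48.1% of all genes did, with a mean level of 7.82, against 6.89 to 8.06 in T-cell mice (median 7.13) and 7.61 to 8.39 in erythroid mice (median 8.05). Of 33 DNA replication genes, again all detected, 21 lay inside both, with a mean of 8.26, against 7.34 to 8.57 in T-cell mice and 8.11 to 8.55 in erythroid mice. The median log2 differences were 0.49 and 0.44 against T-cell mice and -0.12 and -0.18 against erythroid mice (0.39 and 0.48 with median scaling, -0.30 and -0.27 with cyclic loess). Cenpa, the histone of centromeres, was the mitosis gene above both ranges, at 11.03 in mouse 4-3, against 9.25 to 10.06 in the T-cell mice (median 9.67) and 9.99, 10.31, 9.46 and 9.95 in the erythroid mice. Mouse 4-3 lay 1.64-fold above the next mouse, and the log2 differences of 1.31 ± 0.39 SE and 1.10 ± 0.41 SE did not pass (limma adjusted p = 0.298 and 0.938). Rfc2, a subunit of the clamp loader of replication, was at 10.19, against at most 10.03 in T-cell and 9.75 in erythroid mice. Of 6 inhibitors of cyclin-dependent kinases, Cdkn1c lay above both ranges at 7.74 (4.83 to 7.63 in T-cell and 4.87 to 5.91 in erythroid mice), and Cdkn1a, at 7.19, lay inside both.

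Of 21 interferon-response genes, 15 were detected in mouse 4-3, 10 lay in the T-cell range only and 3 below both, where 21.1% and 5.75% of all genes did so. Their mean level was 6.21, against 5.81 to 6.8 in T-cell mice (median 6.37) and 6.68 to 8.73 in erythroid mice (median 6.97). Mouse 4-3 lay below every erythroid mouse and within the T-cell range, with a median log2 difference of -0.08 against T-cell and -0.84 against erythroid mice (-0.49 with median scaling, -1.10 with cyclic loess). Ifit1 was not detected (4.88), against 4.48 to 6.48 in T-cell mice and 6.40, 9.25, 7.58 and 7.07 in erythroid mice, and Rtp4 was not detected (4.97) and lay below both ranges, as Ifit3 did at 6.77. Of 18 immediate early genes, which respond within minutes to stimuli and to handling, 5 lay below both ranges (5.75% of all genes) and 0 above (7.04%). Their mean level was 6.65, against 6.63 to 7.63 in T-cell mice and 6.8 to 7.25 in erythroid mice. Among the 5 were Btg2, given above, and Klf2 (4.62, not detected).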

How the data were processed

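The authors deposited, for each of 25697 probes on each array, a mean bead intensity with its bead error and a detection p-value, with no normalization between arrays; their software was not given in the sources used here. They also deposited a table of log2 values, made with limma and R 3.0.2 per the submitters' processing notes, which correlated at 0.999978 or above with the values computed here and served as an alternative.

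The intensities were normalised in R 4.3.3 by the neqc function of limma 3.58.1 (normexp from the detection p-values, offset 16, quantile). Probes with detection p under 0.05 on at least 3 of 14 labelled arrays were kept (14432 probes), the probe with the highest mean stood for a gene (10474 genes, 2703 with several probes) and arrays of a mouse were averaged. Leukemia type was the only term of lmFit and eBayes. The model had 9 residual degrees of freedom; mouse 4-3, alone in its group, was taken to vary as the other mice did. P-values were two-sided, with Benjamini-Hochberg adjustment over all genes. The labels do not say whether mice with a shared title number are related; if they are, p-values understate the error. The code was tested on simulated data.

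Symbols were updated through a RefSeq gene table (20733 probes current, 3677 renamed, 226 kept because the current symbol stood elsewhere, 1061 without a match). The members and gene lists were chosen with earlier results of these data known. Named genes were Bbx, Lbh and Cbx7, up to 15 genes per direction outside both ranges by distance, those past the threshold in both comparisons, and from each list up to 3 per direction outside both ranges and the first 4 tested. The remaining genes at least 2-fold outside, and those nearest to that limit, are named to complete the count. Some genes that this rule takes are not reported here. The unlabelled array entered the normalization only. The alternatives covered scaling, offset, detection filter, probe choice, repeat arrays, array order, title number, the variance model and leaving out each mouse.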

Additional observations from a re-analysis of the deposited data

Results flagged for a closer look

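Within the T-cell or the erythroid mice, 25 of 222 groups of values (a named gene or a list mean in 1 type) had a highest or lowest mouse far from its neighbours by Dixon's criterion, which chance meets in about 1 of 20 groups. They matter here because such a mouse widens the range that mouse 4-3 is set against. Values are log2 levels, given with the next mouse of the same type.

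T-cell mouse 4-1 stood apart in 5 genes: Il31ra at 7.21 (next 4.60), Sfrp4 at 6.27 (4.55), Pax9 at 6.09 (5.06), Tek at 5.21 (4.52) and Rgcc at 6.07 (6.94). Mouse 4-3 was above mouse 4-1 in the first 4 and below it in Rgcc. These 5 genes were named for lying outside both ranges in mouse 4-3. The outermost T-cell mouse was therefore the nearest T-cell mouse to 4-3 by that choice. T-cell mouse 2-2 stood apart for Lef1 at 5.37 (8.55), Itga2b at 6.18 (4.90) and Ifit1 at 6.48 (4.92), for the granulocyte mean at 9.08 (6.65) and for the megakaryocyte mean at 6.35 (5.73). T-cell mouse 5-1 did so for Notch1 at 8.83 (6.69) and T-cell mouse 2 for the mean of natural killer and cytotoxic genes at 7.75 (6.78).

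Among the erythroid mice, 5-5 stood apart for Dmtn at 8.22 (7.14), Cbx6 at 9.89 (8.19), Ifit3 at 8.05 (7.42) and the red cell membrane mean at 9.39 (8.86). Its 2 arrays differed by at least 2-fold for 33.8% of genes. Mouse 2-3-2, with the fewest probes detected among single-array mice (7554), did so for Gata3 at 4.74 (4.42), Aqp1 at 11.80 (12.30), Cdkn1c at 5.91 (4.97) and the mean of polycomb repressive complex 1 at 5.82 (6.27). Mouse 2-3 did so for Flt3 at 6.10 (4.61), Ezh2 at 9.07 (9.31), the B-cell mean at 6.34 (5.42) and the plasma cell mean at 6.29 (5.84), and mouse 2-3-3 for the T-cell receptor mean at 5.51 (5.89). What set these mice apart was not tested.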

How the results depend on the processing

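The number of genes past the threshold against the T-cell mice (2) was 1 with median scaling, 45 with cyclic loess, 4 with an offset of 50, 8 with a filter of 1 array and with the stricter filter of 7 arrays at p under 0.01, 17 with no filter, 5 with the mean of a gene's probes and 8 without the 2 weakest arrays. It was 4 with array numbers 1 to 8 against 9 to 16 as a block, and 0 to 66 without 1 mouse (0 without mouse 2, 5, 4-2 or 5-3, 66 without 2-2, 21 without 4-1). Against the erythroid mice (1) it was 0 with median scaling, the first repeat array only, arrays 1 to 8 alone, that array block and the trended robust variance, 2 with cyclic loess and with either filter, 10 with no filter, and 0 to 5 without 1 mouse. The count of both took the same values. With the title number as a replicate block the 3 counts were 1, 1 and 1, without Bbx (adjusted p = 0.252 and 0.995). Mouse 4-3 is alone in its group, so whether its number pairs it with other mice could not be checked.

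Genes at least 2-fold above (25) numbered 41 with median scaling, 9 with offset 50 and 12 with the stricter filter, and 24 to 61 without 1 mouse (61 without 4-1). Those below (29) numbered 13 with median scaling, 47 with cyclic loess, 11 with offset 50, 50 without the weakest arrays and 86 with arrays 1 to 8, and 28 to 44 without 1 mouse. Genes between the ranges (135) numbered 79 with median scaling, 89 with cyclic loess, 213 without the weakest arrays and 389 with arrays 1 to 8, and 136 to 290 without 1 mouse. Of genes separating the types, the share in the T-cell range only (39.2%) was 27.5% with median scaling, 33% without the weakest arrays, and 29.9% to 53.1% without 1 mouse. The share in the erythroid range only (35.6%) was 45%, 32.7%, and 21% to 42.5% in the same order. With the title number as a replicate block these shares were 14.7% and 47.7%. Arrays 1 to 8 gave no genes separating the types.

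The sign of Bbx and Lbh held in 25 of 25 settings, but many of these could not change it. Leaving out a mouse could not, as mouse 4-3 lay below all 11 others in both genes. The detection filters and the variance model left the differences as they were. Bbx against T-cell mice lost its call in 7 (0.273 with median scaling, 0.101 with arrays 1 to 8) and against erythroid mice in 16 (adjusted p up to 0.995); Lbh against T-cell mice lost it in 7. Of 40 named genes with a tested difference, 19 gained a call somewhere. The place of 64 of 87 named genes was kept with median scaling and of 71 with cyclic loess. The causes were not tested. Signal over background limits most genes near a level of 5.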

Other observations

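Of 8179 probes detected on none of the 13 other labelled arrays, 5 were detected on the array of mouse 4-3 with a p under 0.01. Among them were those of Mcpt1 at 6.74, Syngr1 at 5.95, Zbtb46 at 5.89 and Zdhhc2 at 6.24 on the log2 scale. These probes did not pass the filter of detection on 3 arrays and were not tested. By its definition, a detection p under 0.01 is reached by a share of about 0.01 of probes without signal. The 5 among 8179 probes are a smaller share than that, on an array without a repeat.

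Over all genes tested, the levels of mouse 4-3 correlated with those of single mice at r = 0.930 for erythroid mouse 2-3-3, 0.929 for T-cell mouse 4-1, 0.920 for erythroid mouse 2-3 and 0.906 for T-cell mouse 2-2. The lowest values were 0.774 for T-cell mouse 5-3 and 0.746 for erythroid mouse 2-3-2. These are correlations across genes, which are not independent replicates, and all arrays share the probes' own brightness. The closest mice therefore belonged to both types.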
